A study of Mus musculus with 38 samples.

Results

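The comparison described here is between microglia taken 4 days after a single dose of DNL919 (8 libraries) and microglia taken 1 day after a single dose of the isotype control ATV:DNP02 (8 libraries), so 16 of the 38 libraries of the series, chosen by their titles alone. DNL919 is an activating antibody against human TREM2 on the antibody transport vehicle, a binding site for the human transferrin receptor that carries an antibody from blood into brain, and ATV:DNP02 has the same vehicle without TREM2 binding. Both were given at 10 mg/kg. All mice were C57BL/6J, 3 months old, homozygous for a knocked-in human apical domain of the transferrin receptor and hemizygous for the bacterial artificial chromosome CTD-2210D2, which carries human TREM2 with TREML1 and TREML2 inactivated. They kept mouse Trem2, and the human transgene was not analysed here. The other groups were DNL919 on day 1 (8 libraries), DNL919 on day 7 (8) and Vehicle on day 1 (6). No isotype library of day 4 was analysed here, so the antibody and the time since dosing cannot be told apart.

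Each library came from CD11b+ cells of 1 mouse, sorted by flow cytometry and sequenced from the 3′ ends of polyadenylated RNA. The labels give 4 takedown batches, with 2 DNL919 day 4 libraries and 2 ATV:DNP02 libraries in each. Batches 1 and 2 were female and batches 3 and 4 were male, and this confounds sex with batch. Libraries held 1.87 to 3.81 M counts on day 4 (median 2.65 M) and 1.65 to 3.48 M in ATV:DNP02 (median 2.24 M). Levels are given as CPM, a gene's counts relative to the TMM-scaled total of its library, and differences as log2 fold changes with their standard error from 1 limma-voom fit of all 38 libraries with batch as a covariate. A gene was called when its Benjamini-Hochberg adjusted p was under 0.05 over the 11189 genes tested. Such p-values measure the spread between mice of this experiment.

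TREM2 is a lipid-sensing receptor of microglia that signals through the adaptor Tyrobp (DAP12) and the kinase Syk. Its signal is known to drive microglial survival, proliferation and the switch from a homeostatic state, marked by P2ry12 and Cx3cr1, to the disease-associated state, marked by Cst7, Itgax and Clec7a. Interferon-stimulated genes are switched on through the interferon-stimulated response element (ISRE), and genes of mitosis are commonly controlled through the cell cycle homology region (CHR) and CCAAT boxes.

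The promoters of 4 genes that rose are shown. Bst2 was taken from the list of interferon-stimulated genes and Top2a and Mki67 from that of mitosis. These 2 lists had the highest median rise on day 4 of the lists tested. Cxcl10 was taken from the list of chemokines. Only genes whose window held the ISRE or CHR letters could be shown, so at least 1 such match in each was fixed in advance. The windows are 300 bases from RefSeq on GRCm38.p6, from 250 bases before to 50 after the start site, 5′ to 3′ on the gene's strand. Capitals in the promoters of Cxcl10 (chr5:92348840-92349139, minus strand), a chemokine that attracts T cells, and Bst2 (chr8:71537423-71537722, minus strand), which tethers viruses to the cell surface, mark the ISRE letters, GAAA, any 2 bases and GAAA, on either strand. Capitals in those of Top2a (chr11:99024140-99024439, minus strand), a topoisomerase that untangles DNA before division, and Mki67 (chr7:135716330-135716629, minus strand), the gene of the Ki-67 protein, mark TTTGAA (CHR) and CCAAT, on either strand.
Cxcl10: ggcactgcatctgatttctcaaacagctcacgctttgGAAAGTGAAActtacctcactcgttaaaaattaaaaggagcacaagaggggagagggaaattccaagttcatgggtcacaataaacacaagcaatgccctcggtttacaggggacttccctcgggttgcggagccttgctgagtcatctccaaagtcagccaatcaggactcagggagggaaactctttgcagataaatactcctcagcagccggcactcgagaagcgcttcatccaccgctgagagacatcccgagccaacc
Bst2: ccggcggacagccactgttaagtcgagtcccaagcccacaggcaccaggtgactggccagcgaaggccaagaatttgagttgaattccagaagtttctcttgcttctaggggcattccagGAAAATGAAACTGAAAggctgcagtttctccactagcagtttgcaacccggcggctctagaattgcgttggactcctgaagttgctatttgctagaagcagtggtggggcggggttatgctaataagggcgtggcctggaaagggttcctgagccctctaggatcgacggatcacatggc
Top2a: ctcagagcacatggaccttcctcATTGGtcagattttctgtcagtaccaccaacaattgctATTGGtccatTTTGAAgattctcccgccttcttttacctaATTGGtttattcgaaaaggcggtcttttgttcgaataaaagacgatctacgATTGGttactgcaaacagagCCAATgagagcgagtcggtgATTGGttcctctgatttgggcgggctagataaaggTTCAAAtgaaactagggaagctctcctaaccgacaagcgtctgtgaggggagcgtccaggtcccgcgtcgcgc
Mki67: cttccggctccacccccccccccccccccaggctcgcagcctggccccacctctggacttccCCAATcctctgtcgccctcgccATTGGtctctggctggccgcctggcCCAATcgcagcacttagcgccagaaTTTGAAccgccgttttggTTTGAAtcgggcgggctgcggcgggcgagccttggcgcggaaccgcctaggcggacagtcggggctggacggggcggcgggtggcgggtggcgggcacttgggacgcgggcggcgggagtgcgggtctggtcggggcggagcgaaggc
The Cxcl10 window held 1 match, and the Bst2 window held 2 that overlap. Top2a held 2 CHR and 6 CCAAT matches, and Mki67 held 2 and 3.

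A RefSeq promoter was matched for 7839 of the 11189 genes tested. The ISRE letters occurred in 3.44% of all 32851 promoters of the table, in 3.19% of those of genes tested and in 23 of the 41 interferon-stimulated genes with a promoter (56.1%). Of the interferon-stimulated genes that rose, 9 of 19 with a promoter held them (47.4%). In the chemokine list, 2 of 11 held them, and 1 of the 4 that rose. Among all genes that rose on day 4, they occurred in 21 of 127 with a promoter (16.5%). TTTGAA occurred in 17.9% of all promoters, in 11.5% of genes tested and in 37 of 52 mitosis genes (71.2%), and CCAAT in 37.4%, 39.1% and 71.2% of the same sets. Of the mitosis genes that rose, 6 of 10 with a promoter held TTTGAA and 7 of 10 held CCAAT. The NF-kB letters, GGGA, any base and TTTCC, also read on both strands, were in 0.411% of all promoters and in 3 of 25 from the list of cytokines and NF-kB targets. These matches describe the letters only.

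DNL919 day 4 replicate 6, a male library of batch 3, stood apart from the other day 4 libraries. Its median Spearman correlation with the other day 4 libraries was 0.815, against 0.859 to 0.879 for the others. Its summed CPM of 15 neutrophil markers was 7784, against 141 to 293 in the other 7 day 4 libraries and 135 to 930 in ATV:DNP02. S100a8, S100a9, Retnlg and Ngp, all made by neutrophils, reached 2909, 1545, 1045 and 909 CPM in it. In the other 7 nearly all of the sum was Csf3r (141 to 292 CPM), which every ATV:DNP02 library also held (135 to 320 CPM). The summed CPM of 57 interferon-stimulated genes in replicate 6 was 1082, within the range of ATV:DNP02 (751 to 1839) and below the other day 4 libraries (2449 to 5823). The part of these neutrophil transcripts in its other values was not tested. Results that rest on this library are given with and without it. It was singled out in part by its low interferon-stimulated sum. Larger rises of such genes without it are therefore partly fixed in advance, and their adjusted p-values are no independent support.

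**Figure D1:**
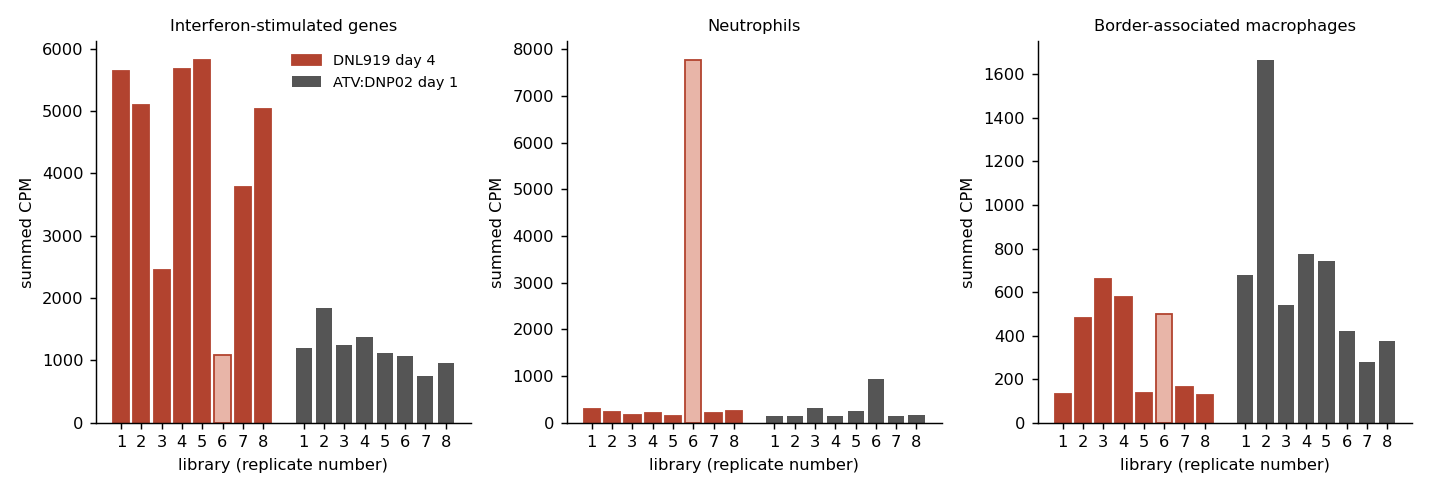
Summed CPM (vertical axis, linear from 0) of interferon-stimulated genes, neutrophil markers and markers of border-associated macrophages in each of the 8 DNL919 day 4 libraries (red) and the 8 ATV:DNP02 libraries (grey), by replicate number. Day 4 replicate 6, in pale red, has 7784 CPM of neutrophil markers and 1082 CPM of interferon-stimulated genes. The other day 4 libraries have 2449 to 5823 CPM of interferon-stimulated genes.

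On day 4, 202 genes differed between DNL919 and ATV:DNP02 (1.81% of those tested). Of these, 177 were higher (1.58%) and 25 lower (0.223%) in DNL919, and 130 changed at least 2-fold. The rise held interferon-stimulated genes, MHC class I genes, chemokines, markers of the disease-associated state, ribosomal proteins and mitotic genes. The 25 lower genes included the purinergic receptors P2ry12 and P2ry13. The median over all genes was 0.03 on the log2 scale. Scaled by library totals, which shifted that median to -0.04, 75.8% of 236 called genes were higher, against 87.6% with TMM scaling. Without DNL919 day 4 replicate 6 the fit called 297 genes, of which 190 were among the 202. Without DNL919 day 4 replicate 8 it called 102, and without ATV:DNP02 replicates 1, 3 or 5 it called 123, 130 and 124. All 202 genes kept their direction without each of the 16 libraries in turn.

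**Figure D2:**
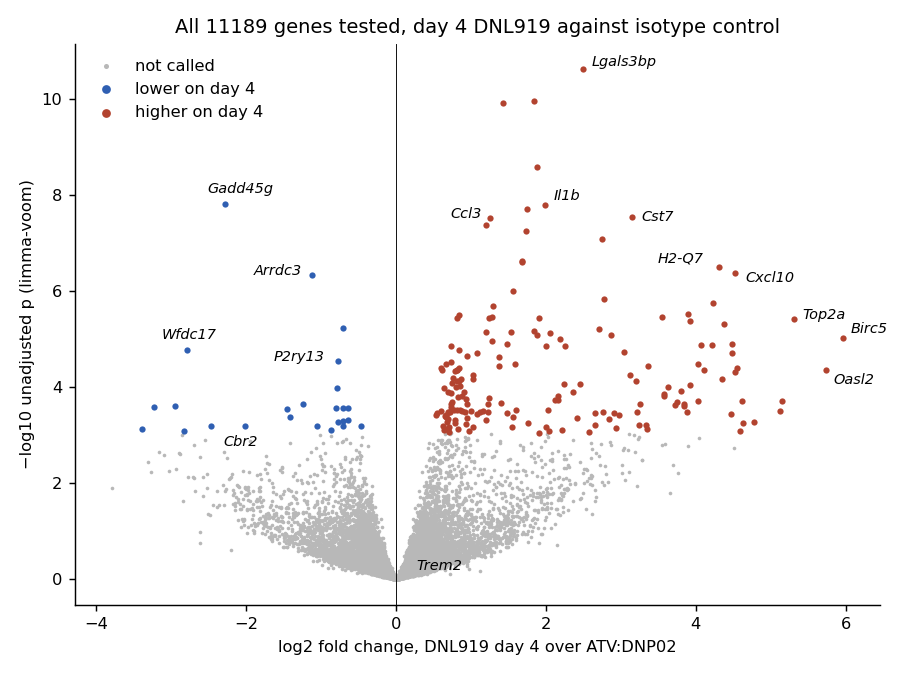
Log2 fold change of DNL919 day 4 over ATV:DNP02 (horizontal axis) against −log10 of the unadjusted limma-voom p (vertical axis) for the 11189 genes tested. The 177 called genes that were higher on day 4 are red, the 25 lower are blue and the rest are grey. Lgals3bp lies highest, and Trem2 lies near 0 on both axes.

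Trem2 and its signalling genes differed little. Trem2 had 1182, 2112 and 2514 CPM (lowest, median and highest) in DNL919 on day 4, against 1119, 1918 and 2267 CPM in ATV:DNP02, a log2 fold change of 0.17 ± 0.15 (adjusted p = 0.740). Both groups overlapped over almost their whole range. Tyrobp had a log2 fold change of 0.26 ± 0.13 (adjusted p = 0.432) and Syk one of 0.30 ± 0.29 (adjusted p = 0.759). None of the 39 genes tested from the list of the TREM2 pathway passed, where 1.81% of all genes did, and their median was 0.09. Of 12 genes on a list of proteins assayed alongside, only Tspo, the mitochondrial protein bound by imaging tracers of gliosis, passed. Its log2 fold change was 0.91 ± 0.22 (adjusted p = 0.0149), and the call was lost without DNL919 day 4 replicate 1 or 8 or ATV:DNP02 replicate 1 or 3.

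Interferon-stimulated genes were the largest group that rose. Of 54 tested from a list of 57, 27 rose and none fell, all 54 had a fold change above 0 with TMM scaling, and their median was 2.09. A list member that is high in only 1 group can pass the filter on low counts through that group, so such counts describe the members that passed. Without DNL919 day 4 replicate 6, 37 rose and the median was 2.496, which follows in part from how that library was singled out. In batch 3 alone, which holds that library, the median was 0.92, against 2.14, 1.53 and 2.15 in batches 1, 2 and 4.

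Lgals3bp, a secreted glycoprotein that binds galectin-3, had the smallest p of all genes. It had 136, 760 and 1198 CPM in DNL919 on day 4, against 51.3, 109 and 198 CPM in ATV:DNP02. The lowest of the day 4 values was that of replicate 6, and the other 7 lay above every ATV:DNP02 library. The log2 fold change was 2.49 ± 0.28 (adjusted p = 2.67e-07).

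Oasl2, a relative of the antiviral oligoadenylate synthetases, had 5.45, 60.5 and 87.7 CPM on day 4, against 0, 0 and 8.64 CPM in ATV:DNP02, with a log2 fold change of 5.74 ± 1.27 (adjusted p = 0.00698). All day 4 libraries but 1 were above every ATV:DNP02 library. Usp18, the protease that removes ISG15 and dampens interferon signalling, had a log2 fold change of 3.20 ± 0.73 (adjusted p = 0.00994), Slfn2, a Schlafen protein of lymphocyte quiescence, one of 1.74 ± 0.27 (adjusted p = 5.63e-05), and Bst2 one of 1.23 ± 0.23 (adjusted p = 0.00145). Ifi209 rose by 2.65 (adjusted p = 0.0390) and Ms4a4c by 2.57 (adjusted p = 0.0482), but these calls held in only 3 and 1 of the 16 fits that left out 1 library. Ifit3, an antiviral tetratricopeptide protein, did not pass, with a log2 fold change of 3.69 ± 1.23 (adjusted p = 0.121). It had 0, 127 and 369 CPM on day 4 against 0, 5.89 and 72.0 CPM in ATV:DNP02, and without replicate 6 its log2 fold change was 4.54 (adjusted p = 0.000368). Some of the Ifi2xx, Oas and Ifit genes are close copies of one another between which reads may be split, so values of such members are uncertain.

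**Figure D3:**
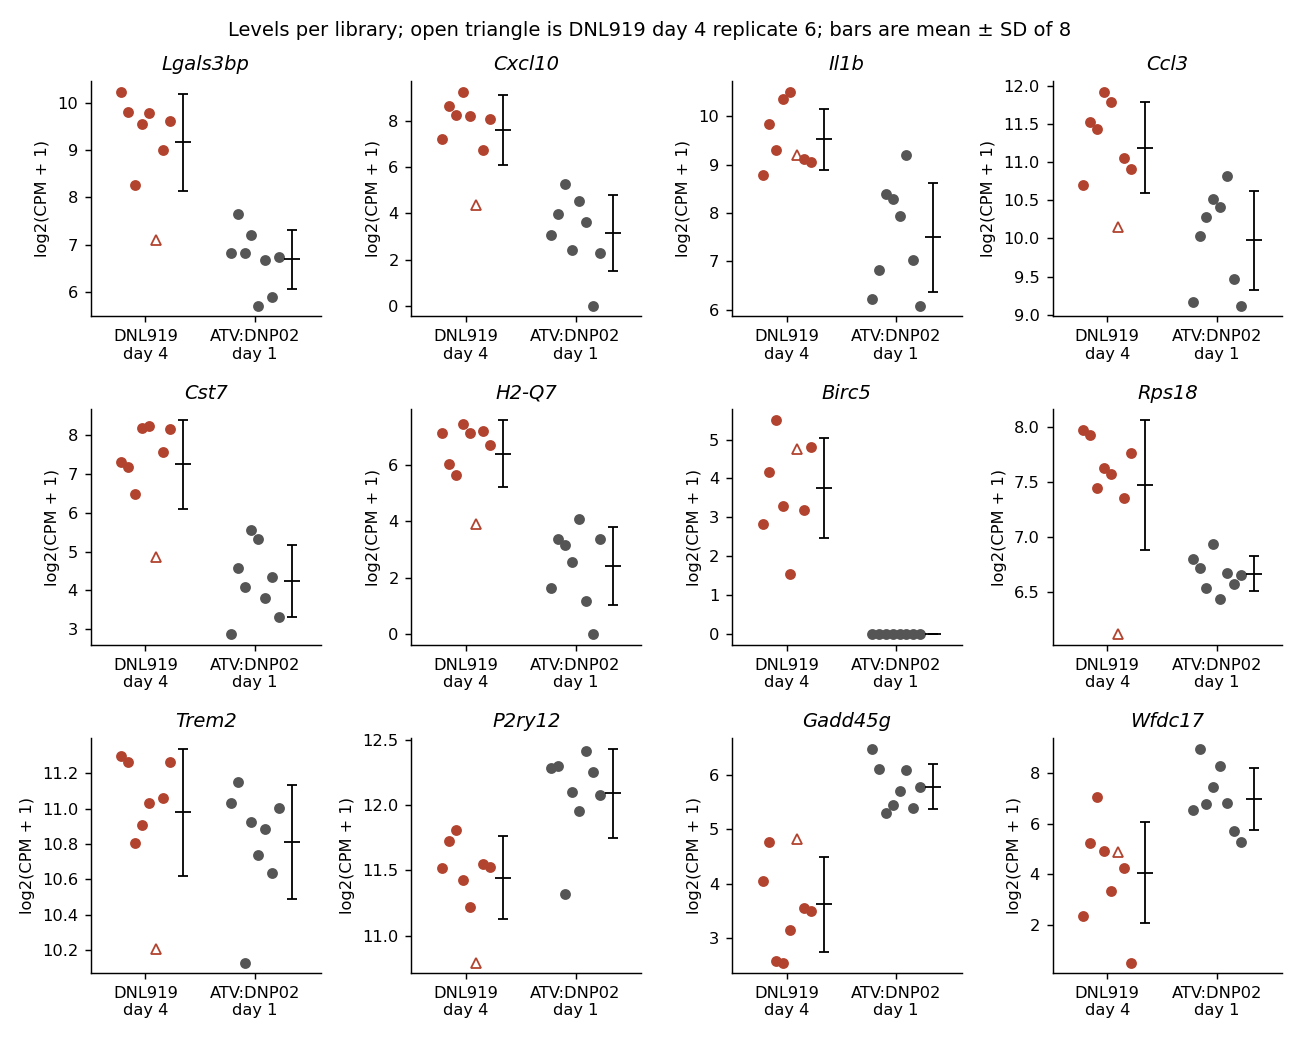
Levels of 12 genes as log2(CPM + 1) in each library of DNL919 day 4 (red, left) and ATV:DNP02 (grey, right), with mean ± SD of 8 libraries beside the points. The open triangle is DNL919 day 4 replicate 6, which lies lowest on day 4 for Lgals3bp (136 CPM), Cxcl10 (19.5 CPM) and Cst7 (28.2 CPM) but not for Il1b or Birc5.

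Genes of antigen presentation by MHC class I rose in 9 of 17, with a median of 0.94, and none fell. MHC class I molecules show peptides of the cell's own proteins to CD8 T cells. H2-K1, a classical class I heavy chain, had 545, 1336 and 1988 CPM in DNL919 on day 4, against 377, 428 and 639 CPM in ATV:DNP02. Replicate 6 alone overlapped with the control libraries. The log2 fold change was 1.42 ± 0.17 (adjusted p = 4.36e-07). H2-D1, the other classical heavy chain of this strain, had a log2 fold change of 1.75 ± 0.26 (adjusted p = 3.01e-05). Of the nonclassical chains, H2-Q7 had 14.1, 121 and 175 CPM on day 4, against 0, 6.43 and 15.8 CPM in ATV:DNP02, a log2 fold change of 4.31 ± 0.72 (adjusted p = 0.000237). Its close copy H2-Q6 followed at 3.92 ± 0.75 (adjusted p = 0.00154), and reads may be split between such class I genes.

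Members of the same list with other roles rose as well. These were the light chain B2m at 0.94, the peptide transporter Tap1 at 2.12, the class I transactivator Nlrc5 at 2.76 and the proteasome activator Psme1 at 0.82 on the log2 scale. Of 11 class II genes, only H2-Ob, a subunit of the H2-O regulator of class II peptide loading, passed. It had a log2 fold change of 0.86 ± 0.22 (adjusted p = 0.0255), a call that held in 8 of 16 fits without 1 library. The class II median was 0.32.

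Chemokines recruit and position immune cells, and 7 of 18 tested rose, with a median of 0.97. Cxcl10 had 19.5, 281 and 611 CPM in DNL919 on day 4, against 0, 9.34 and 37.97 CPM in ATV:DNP02. Replicate 6 had the 19.5 CPM, and the other 7 day 4 libraries were above every ATV:DNP02 library. The log2 fold change was 4.52 ± 0.77 (adjusted p = 0.000292). Cxcl9 and Cxcl11, like it known as ligands of Cxcr3, had log2 fold changes of 4.47 and 5.16. Of the 19 chemokines listed, 3 were at 0 in all ATV:DNP02 libraries, where large fold changes are uncertain. Ccl3, an inflammatory chemokine made by activated microglia, had 1136, 2446 and 3884 CPM on day 4 against 554, 1141 and 1808 CPM in ATV:DNP02. The groups overlapped in 2 of the 8 day 4 libraries, and the log2 fold change was 1.20 ± 0.18 (adjusted p = 4.73e-05). Ccl4, its close relative, followed with 1.25 ± 0.19 (adjusted p = 3.61e-05).

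Ccl12, a ligand of Ccr2 that attracts monocytes, had a log2 fold change of 2.00 ± 0.41 (adjusted p = 0.00316). ATV:DNP02 replicate 2 reached 972 CPM of it, where the median of that group was 356 CPM. The chemokine Ccl2 did not pass, with a log2 fold change of 0.47 (adjusted p = 0.750). In batches 1 to 4 alone its fold change was -0.29, 2.24, -0.71 and 0.17. Cxcl16, a transmembrane chemokine that binds Cxcr6, had 63.6, 333 and 534 CPM on day 4 against 51.3, 76.8 and 117 CPM in ATV:DNP02, a log2 fold change of 1.88 ± 0.26 (adjusted p = 7.28e-06). Again replicate 6 was the only day 4 library within the control range.

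Of 30 cytokines and NF-kB targets, 10 rose and none fell, with a median of 0.70. Il1b, the proinflammatory cytokine processed by the inflammasome, had 438, 612 and 1457 CPM in DNL919 on day 4, against 66.5, 186 and 589 CPM in ATV:DNP02. Here replicate 6, with 591 CPM, was close to the day 4 median, and 3 of the 8 day 4 libraries lay below the highest control, ATV:DNP02 replicate 6. The log2 fold change was 1.98 ± 0.29 (adjusted p = 2.98e-05). ATV:DNP02 replicate 6 also had the highest summed neutrophil markers of its group, at 930 CPM, and neutrophils make Il1b. The part of those cells in the Il1b values was not tested, and the day 4 libraries other than replicate 6 had 438 to 1457 CPM of Il1b beside 141 to 293 CPM of neutrophil markers. Nearly all of those 141 to 293 CPM was Csf3r, which every ATV:DNP02 library also held (135 to 320 CPM).

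Tlr2, a receptor of bacterial lipopeptides, rose by 1.28 ± 0.26 (adjusted p = 0.00287). Tnf, the cytokine tumour necrosis factor, rose by 0.93 ± 0.23 (adjusted p = 0.0188) and lost its call in 5 of 16 fits without 1 library (DNL919 day 4 replicates 2, 5 and 8 and ATV:DNP02 replicates 1 and 2). Csf1, the growth factor that keeps microglia alive through Csf1r, had 28.3, 62.3 and 92.3 CPM on day 4 against 9.82, 17.6 and 33.6 CPM in ATV:DNP02. It overlapped in 1 library, with a log2 fold change of 1.68 ± 0.28 (adjusted p = 0.000192). Il2rg, the common gamma chain of several interleukin receptors, had 34.5, 99.2 and 175 CPM on day 4 against 2.10, 20.2 and 28.8 CPM in ATV:DNP02. The groups did not overlap, and the log2 fold change was 2.74 ± 0.43 (adjusted p = 7.49e-05).

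Markers of disease-associated microglia, the state found near amyloid plaques, rose in 15 of 35 tested, with a median of 0.72 and none lower. Of the 15, B2m, H2-D1, Csf1, Ctsl and Ctsz also stand on the lists of class I presentation, cytokines or lysosome. Without replicate 6, 18 rose and the median was 0.89. Cst7, an inhibitor of lysosomal cathepsins, had 28.2, 173 and 301 CPM in DNL919 on day 4, against 6.29, 17.7 and 45.7 CPM in ATV:DNP02. All but replicate 6 lay above the controls, and the log2 fold change was 3.15 ± 0.47 (adjusted p = 3.61e-05). Itgax, the integrin CD11c, had a log2 fold change of 3.55 ± 0.67 (adjusted p = 0.00145), Clec7a, the beta-glucan receptor dectin-1, one of 1.54 ± 0.30 (adjusted p = 0.00223) and Cd52, a small surface glycoprotein, one of 1.68 ± 0.28 (adjusted p = 0.000192).

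Other members of that list did not pass. Axl, a receptor tyrosine kinase that clears dying cells, had 0, 48.1 and 67.2 CPM on day 4, against 0, 3.24 and 16.8 CPM in ATV:DNP02, with a log2 fold change of 3.12 ± 1.08 (adjusted p = 0.145). Replicate 6 had none of it, and without that library the log2 fold change was 3.98 (adjusted p = 0.00105). Lpl, the lipoprotein lipase, had a log2 fold change of 0.51 ± 0.84 (adjusted p = 0.881), and no day 4 library was above the highest control. Of 20 genes of lipid storage and efflux none passed, where 1.81% of all genes did, and their median was 0.20.

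Of 53 lysosomal genes, 4 rose, the cathepsins Ctsh, Ctsl and Ctsz and the mannosidase Man2b1, by 0.60 to 0.66 on the log2 scale. Without replicate 6, 11 rose, and 6 rose with DESeq2 and in females. None rose in males or with no batch term. Over all genes, 264 were higher without replicate 6, 246 with DESeq2, 124 in females, 75 with no batch term and 1 in males. The count of 0 in males therefore says little about this list. Adding the noncoding share to the model left 2 lysosomal genes that rose (234 over all genes) and a list median of 0.069, against 0.30 without it. Ctsl had 682, 1501 and 1812 CPM in DNL919 on day 4 against 679, 890 and 1080 CPM in ATV:DNP02. Replicate 6 was the lowest of the day 4 libraries and the other 7 exceeded all controls, with a log2 fold change of 0.63 ± 0.15 (adjusted p = 0.0128). That call was lost without DNL919 day 4 replicate 8 or ATV:DNP02 replicate 3.

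Genes of mitosis, several of them at or near 0 in ATV:DNP02, rose next. Of 60 tested from 72 matched, 13 rose and none fell, with a median of 2.19. Of the 72, 18 were at 0 in all ATV:DNP02 libraries. The number that rose was 18 with edgeR, 23 with DESeq2, 5 with no batch term, 4 in females and 0 in males. Over all genes, 207, 246, 75, 124 and 1 were higher in these settings. Birc5, the inhibitor of apoptosis survivin that also belongs to the chromosomal passenger complex, had 1.94, 12.8 and 44.1 CPM in DNL919 on day 4 and 0 counts in all ATV:DNP02 libraries. With a floor of 3 counts over the ATV:DNP02 group it was at least 120-fold higher (adjusted p = 0.00262). In Vehicle it was at 0 in 5 libraries and at 14.9985 CPM (29 counts) in replicate 5, which is above the day 4 median. Pbk, a mitotic kinase, and Mki67 were likewise at 0 in all ATV:DNP02 libraries, and were at least 37.0-fold (adjusted p = 0.000962) and at least 34.03-fold higher (adjusted p = 0.0209). The Mki67 call was lost without DNL919 day 4 replicate 3, 7 or 8 or ATV:DNP02 replicate 1 or 3. Top2a had 0, 18.5 and 25.9 CPM on day 4 against 0, 0 and 1.26 CPM in ATV:DNP02, with 360 and 4 counts in all and an adjusted p of 0.00145. Only 1 day 4 library was within the control range.

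The mitosis list varied between batches. Its median was 2.37, 1.08, 0.03 and 1.497 in batches 1 to 4 taken alone, where between 22 and 31 members could be tested. Its summed level was 806, 1249 and 1762 CPM on day 4 and 679, 903 and 985 CPM in ATV:DNP02. Genes of DNA replication, in contrast, passed in 2 of 57, where 1.58% of all genes were higher, with a median of 0.33. These were Tk1, the thymidine kinase of the salvage pathway, at 3.36 ± 0.73 (adjusted p = 0.00644), and Hells, a chromatin remodeller, at 3.24 ± 0.88 (adjusted p = 0.0385), whose call held in 3 of 16 fits without 1 library. Mcm6, a subunit of the replicative helicase, had a log2 fold change of -0.14 ± 0.48 (adjusted p = 0.953), and it was positive under edgeR (0.58) and without replicate 6 (0.29).

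Cytosolic ribosomal proteins rose by small amounts in 21 of 80, with a median of 0.54, and 77 of the 80 fold changes were above 0. Without replicate 6, 35 rose. Rps18, a protein of the small subunit, had 68.2, 193 and 251 CPM in DNL919 on day 4 against 85.4, 100.3 and 122 CPM in ATV:DNP02, with a log2 fold change of 0.84 ± 0.19 (adjusted p = 0.00683). Replicate 6 was below every control and the other 7 day 4 libraries were above. Fau, which encodes a ribosomal protein fused to a ubiquitin-like one, followed with 0.73 ± 0.16 (adjusted p = 0.00568), and Rps9 with 0.59 ± 0.13 (adjusted p = 0.00683). Processed pseudogenes of ribosomal proteins share reads with them, so single values are uncertain.

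Few members passed on the other lists of growth and metabolism. Polr1c passed among 62 genes of ribosome biogenesis (median 0.09) and Cox4i1 among 77 nuclear genes of oxidative phosphorylation (median 0.15). Over all genes tested 1.58% were higher, so these counts are near the share of all genes. Cox4i1, a subunit of cytochrome oxidase, had a log2 fold change of 0.66 ± 0.14 (adjusted p = 0.00590). In glycolysis, the isomerase Tpi1 at 1.20 ± 0.24 (adjusted p = 0.00223) and the lactate dehydrogenase Ldha at 0.73 ± 0.18 (adjusted p = 0.0237) passed among 21, of which 19 had a fold change above 0, with a median of 0.65 (0.30 with the noncoding share as a covariate). The Ldha call held in 6 of 16 fits without 1 library, and the Polr1c call in 6. No gene passed among 95 of the mitochondrial ribosome, 34 of the proteasome, 34 ER chaperones, 28 ATF4 targets, 20 of the TCA cycle, 27 of fatty acid oxidation and 19 of cholesterol synthesis. With 1.81% called over all genes, such counts say little about lists of these sizes.

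**Figure D4:**
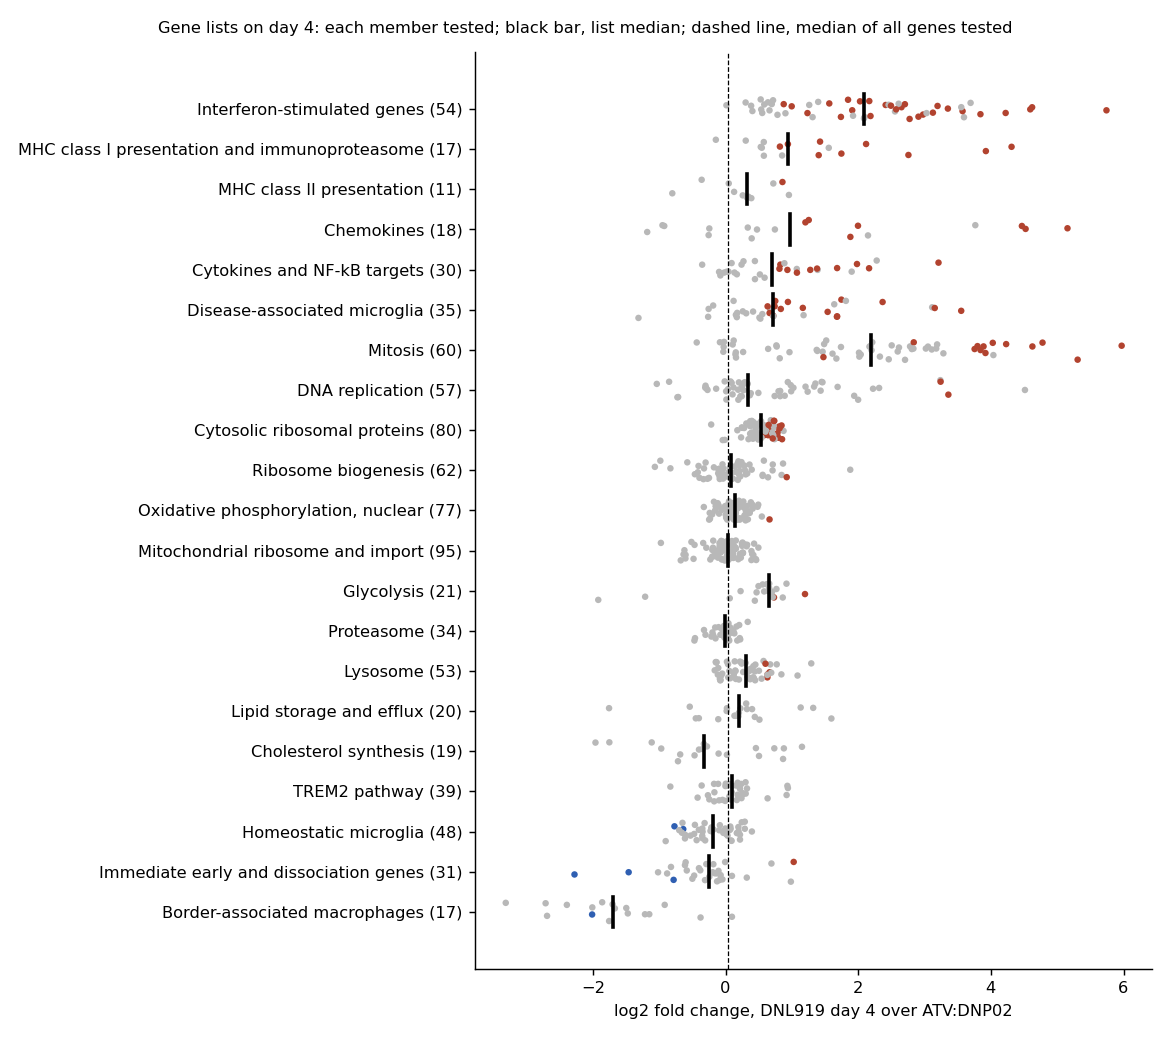
Log2 fold change of DNL919 day 4 over ATV:DNP02 (horizontal axis) of every member tested of 21 gene lists, with the number tested in brackets. Called members are red (higher) or blue (lower), black bars are list medians and the dashed line is the median of all genes (0.03), so that interferon-stimulated genes (2.09) and mitosis (2.19) lie right of it and border-associated macrophages (-1.70) left of it.

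Of 48 homeostatic microglial genes, 2 fell, P2ry12 and P2ry13, and the median was -0.19. The number that fell was 6 when scaled by library totals, 8 with the noncoding share as a covariate, 5 in females, 3 without replicate 6, 1 with edgeR or no batch term and 0 in males. Over all genes, 57 were lower with library totals, 88 with the noncoding share, 28 in females and 33 without replicate 6. With edgeR 15 were lower, with no batch term 6 and in males 1. The sum of this list was 114157, 159093 and 174402 CPM in DNL919 on day 4 and 130503, 165474 and 188038 CPM in ATV:DNP02, so its defining transcripts were abundant in every library. P2ry12, the ADP receptor that guides microglial processes, had 1773, 2935 and 3584 CPM on day 4, against 2558, 4630 and 5466 CPM in ATV:DNP02. The groups overlapped, and the log2 fold change was -0.64 ± 0.17 (adjusted p = 0.0328). The call was lost without DNL919 day 4 replicate 6 (-0.53, adjusted p = 0.0695) and also without DNL919 day 4 replicate 5 or ATV:DNP02 replicate 4 or 6. P2ry13, another ADP receptor, had 480, 562 and 683 CPM on day 4 against 559, 1039 and 1332 CPM in ATV:DNP02, a log2 fold change of -0.77 ± 0.17 (adjusted p = 0.00553) that passed in all 16 fits without 1 library. Cx3cr1, the fractalkine receptor, did not pass, with -0.35 ± 0.14 (adjusted p = 0.260).

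Gadd45g, a stress gene of growth arrest that is quickly induced, fell most clearly. It had 4.80, 10.5 and 27.3 CPM in DNL919 on day 4 against 38.4, 52.5 and 89.0 CPM in ATV:DNP02. The groups did not overlap, and the log2 fold change was -2.28 ± 0.33 (adjusted p = 2.98e-05). It stands on a list of 31 immediate early and dissociation genes, of which 3 fell (also Klf4 and the chaperone Dnajb1) and 1, the nuclear receptor Nr4a1, rose. With the noncoding share in the model 7 fell and 2 rose, and without replicate 6 of day 4, 5 fell and 2 rose. In females 6 fell and in males none, and with edgeR, DESeq2 or no batch term 2 fell. Over all genes, 88 were lower with the noncoding share, 33 without replicate 6 and 28 in females. In males 1 was lower, with edgeR 15, with DESeq2 47 and with no batch term 6. Nr4a1 had a log2 fold change of 1.03 ± 0.23 (adjusted p = 0.00973), lost without DNL919 day 4 replicate 2 or ATV:DNP02 replicate 5. Such genes respond to tissue handling, and the part of handling in these values was not tested. Arrdc3, an arrestin-domain adaptor, fell by 1.13 ± 0.19 (adjusted p = 0.000295) and Cd164, a sialomucin, by 0.71 ± 0.14 (adjusted p = 0.00202).

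Across all 11189 genes, 12 had all 8 DNL919 day 4 libraries above all 8 ATV:DNP02 libraries (0.107%) and 2 had them all below (0.0179%). The 2 were Gadd45g and Pla2g4a, a phospholipase named here after its values were seen, with a log2 fold change of -0.70. Among the 12 were Birc5, Il2rg and Fgl2, a fibrinogen-like immune regulator with 13.2, 26.2 and 70.1 CPM on day 4 against 1.46, 2.58 and 8.998 CPM in ATV:DNP02 and a log2 fold change of 3.05 ± 0.64 (adjusted p = 0.00399).

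Of 17 markers of border-associated macrophages, the macrophages of meninges and vessels, 1 passed. The fold changes of 16 were below 0 and their median was -1.70, and in batches 1 to 4 alone the median was -3.07, -0.15, -1.56 and -2.39. Cbr2 passed at -2.01 ± 0.55 (adjusted p = 0.0397), a call that held in 7 of 16 fits without 1 library and under neither edgeR nor DESeq2. The summed level of 18 markers was 128, 321 and 662 CPM in DNL919 on day 4 and 278, 611 and 1668 CPM in ATV:DNP02. The sums overlapped, and an exact two-sided permutation test of the means gave p = 0.0493 (adjusted over 18 library measures, 0.222). None of the 18 markers was at 0 in all libraries of either group. Mrc1, the mannose receptor that defines them, had a log2 fold change of -1.15 ± 0.58 (adjusted p = 0.413).

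Wfdc17, a small secreted inhibitor made by macrophages, had 0.409, 23.1 and 132 CPM in DNL919 on day 4 against 37.7, 111 and 504 CPM in ATV:DNP02. All day 4 libraries but 1 were below every control, with a log2 fold change of -2.79 ± 0.58 (adjusted p = 0.00365). Whether macrophage content had a part in Wfdc17 was not tested. In bulk libraries fewer cells of a type and less RNA per cell cannot be told apart. Of other cell types, the summed endothelial markers were 371, 778 and 877 CPM on day 4 and 389, 562 and 775 CPM in ATV:DNP02. The exact permutation test of their means gave p = 0.0357 (adjusted 0.214). Most of that sum was Bsg, which had 355 to 768 CPM on day 4 and 336 to 684 CPM in ATV:DNP02 and is not limited to endothelium. Of the 6 endothelial markers tested only Bsg and Ly6a had fold changes above 0, the median was -0.50, and the defining marker Pecam1 averaged 6.50 CPM on day 4 and 11.8 CPM in ATV:DNP02 (adjusted p = 0.368). Tek and Esam were at 0 in all 16 libraries. All 9 neuronal markers tested had fold changes below 0 and none passed. Ly6a, which endothelium expresses and interferon induces, rose by 2.24 ± 0.52 (adjusted p = 0.0114) and lost its call without ATV:DNP02 replicate 1. Monocyte markers summed to 127, 283 and 547 CPM on day 4 and 50.02, 231 and 354 CPM in ATV:DNP02, with Ms4a4c and Nr4a1 as the 2 of 11 that rose. The median of the 11 was 0.03, and 6 had fold changes above 0. Ly6c2 had 0 to 45.5 CPM on day 4, highest in replicate 6, and 0 to 39.4 CPM in ATV:DNP02. Ccr2 had 0 to 24.4 CPM on day 4 and 1.11 to 33.8 CPM in ATV:DNP02.

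The long noncoding RNA Malat1, retained in the nucleus, had 21044, 38863 and 52384 CPM in DNL919 on day 4 and 34048, 54719 and 67268 CPM in ATV:DNP02. The groups overlapped in all but 2 day 4 libraries, and the log2 fold change was -0.54 ± 0.16 (adjusted p = 0.0793). An exact permutation test of the CPM within batches gave p = 0.00154 (adjusted over 18 measures, 0.0278), and without batches 0.0176 (adjusted 0.214). The fit passed 0.05 without DNL919 day 4 replicate 3 or 6 (adjusted p = 0.0297 without replicate 6) or ATV:DNP02 replicate 8. The share of counts in noncoding genes was 7.15 ± 2.32% (SD) in the 8 day 4 libraries and 8.87 ± 2.13% (SD) in the 8 ATV:DNP02 libraries. With that share as a covariate, 322 genes were called, of which 162 were among the 202.

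The Vehicle group, which received no antibody, gave a second control on day 1. Against it, 104 genes were higher in DNL919 on day 4 (0.929%) and 17 lower (0.152%). Both contrasts share the day 4 libraries. Against Vehicle, with its 6 libraries, 10 of 54 interferon-stimulated genes rose (median 1.81), 3 of 60 mitosis genes (median 2.09) and 4 of 18 chemokines (median 1.12). Against ATV:DNP02 these were 27, 13 and 7. Class I presentation gave 6 of 17, disease-associated microglia 12 of 35 and ribosomal proteins 21 of 80, where ATV:DNP02 gave 9, 15 and 21. Log2 fold changes against Vehicle were 2.42 for Lgals3bp, 3.82 for Cxcl10, 2.18 for Il1b, 2.26 for Cst7 and -1.81 for Gadd45g, all with an adjusted p at or below 0.00536. Clec7a (1.16, adjusted p = 0.0791), Ccl12 (1.38, adjusted p = 0.125), Top2a (3.50, adjusted p = 0.0768), P2ry12 (-0.54, adjusted p = 0.161), P2ry13 (-0.64, adjusted p = 0.0623) and Wfdc17 (-2.18, adjusted p = 0.0652) did not pass. Between ATV:DNP02 and Vehicle no gene was called by limma-voom, and 498 had an unadjusted p under 0.05.

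Day 4 was also set against DNL919 on day 1, when 35.8% of genes differed from ATV:DNP02. Between the 2 days 31.9% of genes differed, 1549 of them higher on day 4 (13.8%) and 2020 lower (18.1%). The groups also differed in noncoding share, 2.64 to 6.64% on day 1 and 4.07 to 10.99% on day 4. With that share as a covariate the 3569 calls became 2527, of which 2132 were among the 3569. They became 2942 with edgeR and 4487 with library quality weights. Of the 57 DNA replication genes 53 were lower on day 4, with a median of -3.07, while 25 of the 60 mitosis genes were lower, with a median of -1.40. Mcm6 averaged 126 ± 32.1 CPM on day 1, 10.8 ± 8.96 on day 4 and 10.7 ± 4.92 on day 7, where ATV:DNP02 averaged 7.48 ± 4.77 CPM (SD over 8 libraries each). Lpl, at 12.8 ± 8.57 CPM on day 4, fell by 5.50 on the log2 scale relative to day 1 (adjusted p = 2.84e-09). Chemokines also declined, with 11 of 18 lower on day 4, including Cxcl10 by -3.80 (adjusted p = 2.15e-11) and Ccl12 by -4.10 (adjusted p = 1.08e-11).

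Other genes were as high on day 4 as on day 1, or higher. Lgals3bp averaged 679 ± 344 CPM on day 4 and 622 ± 234 on day 1 (log2 fold change 0.00, adjusted p = 1.00). Il1b averaged 805 ± 385 CPM on day 4 and 545 ± 164 on day 1, a log2 fold change of 0.49 (adjusted p = 0.168). H2-Q7 averaged 104 ± 56.0 CPM on day 4 and 19.2 ± 13.7 on day 1, higher by 2.05 (adjusted p = 5.90e-05). H2-K1 and H2-D1 were higher on day 4 by 0.66 (adjusted p = 0.00191) and 0.75 (adjusted p = 0.0154). P2ry12 was also higher on day 4 than on day 1, by 0.86 (adjusted p = 0.000109), and 26 of the 48 homeostatic genes were higher with none lower. Gadd45g was lower on day 4 than on day 1 by -2.15 (adjusted p = 1.56e-06). Nr4a1 was higher by 0.83 (adjusted p = 0.00346).

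Between day 7 and day 4 no gene was called by limma-voom, with 483 at an unadjusted p under 0.05, none by edgeR and 1 by DESeq2, Tex11, which was named after its values were seen. Against the same ATV:DNP02 libraries, 1.51% of genes were called on day 7, 146 of them higher (1.30%) and 0.206% of all tested lower, with log2 fold changes of 2.47 for Lgals3bp, 4.43 for Cxcl10, 4.18 for H2-Q7, 1.90 for Il1b and 3.12 for Cst7. Interferon-stimulated genes passed in 13 of 54 on day 7, with a median of 1.70, and markers of disease-associated microglia in 17 of 35, with a median of 0.87. The 2 days share their control libraries, and 1 day 7 library had 48414 CPM of neutrophil markers.

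**Figure D5:**
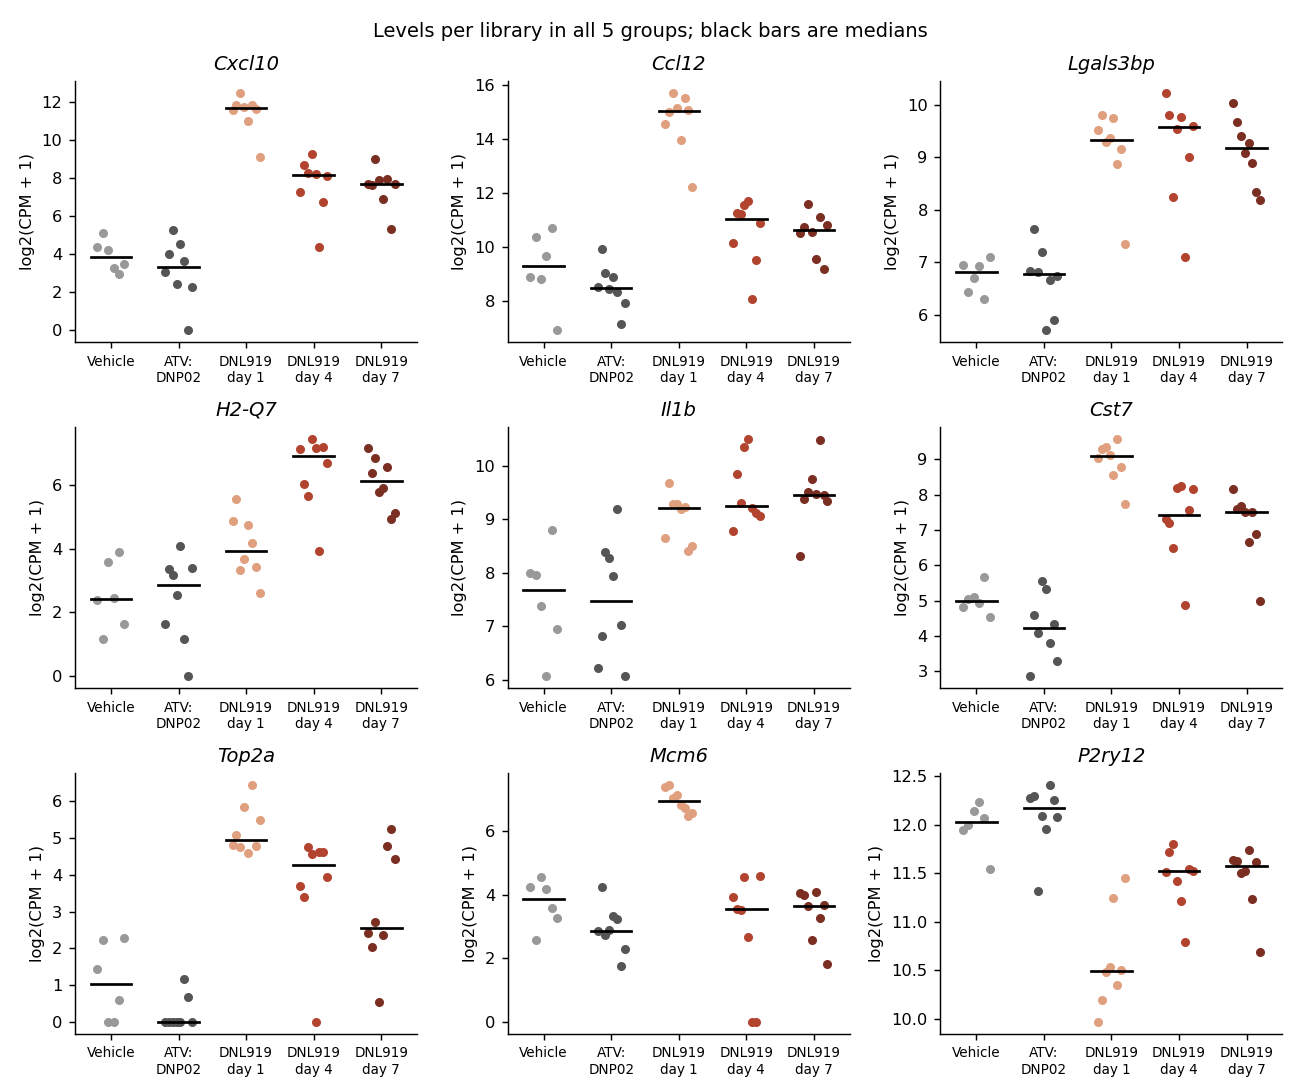
Levels of 9 genes as log2(CPM + 1) in each library of Vehicle, ATV:DNP02 and DNL919 on days 1, 4 and 7, with medians as black bars. Mcm6 averages 10.8 CPM on day 4 and 126 CPM on day 1, Lgals3bp averages 622, 679 and 599 CPM on days 1, 4 and 7, and H2-Q7 averages 104 CPM on day 4 and 19.2 CPM on day 1.

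The day 4 effect was also compared between males and females. No gene was called by limma-voom for a difference between the sexes, with 505 at an unadjusted p under 0.05 and none by edgeR. The females gave 152 called genes and the males 2, among them Arrdc3 at -1.55 (adjusted p = 0.0419). The males include replicate 6. Log2 fold changes in males and females were 2.64 and 2.38 for Lgals3bp, 4.19 and 4.73 for Cxcl10, 1.81 and 2.14 for Il1b, and 3.67 and 2.10 for Il2rg.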

How the data were processed

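RNA of sorted CD11b+ cells was measured by bulk sequencing in 38 libraries. Per the submitters' processing notes, the authors aligned reads with STAR, counted reads in genes with featureCounts (Subread 1.6.2), build GRCm38.p6, and used edgeR. The annotation release is not given in the sources used here, and use of molecular identifiers is not stated. The sheet of raw counts deposited by the authors holds 53801 genes, and 100% of its values of 100 or more, which carry 91.3% of the counts, have at most 2 significant digits. The deposited normalized signal (CPM) was not used. The deposited scaling factors, a ratio per library, served only as an alternative. Column sums differed from the deposited library sizes by -0.498% to 0.258%. No columns were left unmapped.

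Here, counts were filtered with filterByExpr (minimum count 10, minimum total 15, proportion 0.7), scaled with TMM in edgeR 4.0.16 and fitted with limma-voom in limma 3.58.1 (R 4.3.3), with group and batch as terms. DESeq2 1.42.0 was an alternative. On simulated counts of these 11189 genes with 200 changed, the day 4 fit recovered 133 with 6 false calls. Library measures were compared by exact permutation (12870 splits, or 1296 within batches). Named genes were called genes of at least 10 CPM with all 8 day 4 libraries on 1 side of the ATV:DNP02 mean (the 15 largest rises and 15 largest falls), the 3 best members of each list and a fixed panel. Other genes were added as list examples. The members and lists were chosen with earlier results of these data known. ATV:DNP02 was read as the antibody called ATV:ISO in the study, and DNL919 as ATV:TREM2. Libraries were numbered in the order of the labels. The brain region is labelled inconsistently. Items withheld for evaluation are not reported here.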

Additional observations from a re-analysis of the deposited data

Results flagged for a closer look

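For most of the genes given here and for the library measures, the highest and the lowest library of each group of 8 were set against the others by Dixon's test (critical value 0.526 for 8). Of 190 values tested 27 stood out. The test singles out about 1 in 20 groups by chance only where values are normally distributed. Here it was run on CPM and summed CPM without a log scale, and several of these were strongly skewed. The count of 27 therefore cannot be read as an excess over chance. The causes of these outlying values were not tested.

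In DNL919 day 4 replicate 6, neutrophil markers (7784 summed CPM) and Syk (95.4 CPM) were high, and Slfn2 (41.8 CPM), Ctsl (682 CPM) and endothelial markers (371 summed CPM) were low. Day 4 replicate 1 was high for H2-Q6 (52.6 CPM), Ccdc162 (7.89 CPM) and markers of T and NK cells (179 summed CPM). Day 4 replicate 3 was high for Pbk (16.5 CPM) and Wfdc17 (132 CPM), replicate 4 for Ifi209 (144 CPM) and replicate 7 for markers of oligodendrocyte precursors (2.99 summed CPM).

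ATV:DNP02 replicate 2 was high for Cd69 (2.52 CPM), Ifit3 (72.0 CPM), Ly6i (12.96 CPM), Ccl12 (972 CPM), Mcm6 (17.996 CPM) and markers of border-associated macrophages (1668 summed CPM). Replicate 6 of that group was high for Top2a (1.26 CPM), Tk1 (2.52 CPM) and neutrophil markers (930 summed CPM). Replicate 3 was high for H2-Q6 (7.19 CPM), H2-K1 (639 CPM) and markers of T and NK cells (116 summed CPM). Replicate 1 was high for Cx3cr1 (2200.0 CPM) and mural cell markers (95.3 summed CPM) and low for Cd52 (175 CPM).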

How the results depend on the processing

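No paired analysis was possible because the labels give the libraries no replicate numbers. The 202 calls of DNL919 day 4 against ATV:DNP02 became 81 with no batch term, 518 with library quality weights, 322 with the noncoding share as a covariate, 2 in males, 64, 13, 0 and 30 in batches 1 to 4 alone, and 102 to 297 when 1 library was left out. Within a batch, 2 libraries stand against 2. Other settings gave 147 (no filter) to 293 (DESeq2). Against Vehicle, 121 calls became 247 with DESeq2, 71 with no filter, 61 with no batch term, 366 with quality weights, 188 with the noncoding covariate and, as an alternative chosen after seeing the data, 261 without DNL919 day 4 replicate 6. Day 7 against day 4 gave 1 call with DESeq2 and 12 with no filter, and the difference between sexes gave 3 with no filter. Of the library measures, 1 (Malat1) passed within batches and 0 otherwise. Under edgeR the day 4 count was 222. Of the genes that lost or changed direction, Lpl gave -1.03 and -1.36 in batches 2 and 3 alone and -0.32 to 1.36 when 1 library was left out. Syk gave -0.34 in batch 2, and Tyrobp and Trem2 gave -0.25 and -0.21 in batch 3. Trem2 gave -0.074 with the noncoding covariate. Bmi1 gave 0.49 in batch 3 and Mrc1 0.38 in batch 2. Mcm6 gave 0.25 in the 16 libraries alone, 0.58 with edgeR, 0.55 with DESeq2, 0.061 with quality weights, 0.62 in females, 0.29 and 1.19 in batches 1 and 2, and -0.47 to 0.29 when 1 library was left out. The cause was not tested. Of 2514 values of 77 genes under alternatives, 1921 kept direction and side of the threshold, 547 kept direction and lost the call and 19 reversed. Depth limits low genes most: 3 counts was the floor used for a group at 0.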

Other observations

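Some genes outside the lists were among the largest changes. Fgl2 and Il2rg are given above. Phf11a, a PHD-finger gene, had 1.82, 11.7 and 43.2 CPM in DNL919 on day 4 (lowest, median and highest) and 0, 0 and 4.68 CPM in ATV:DNP02, with a log2 fold change of 4.07 ± 0.83 (limma-voom, adjusted p = 0.00316). Osbp, an oxysterol-binding protein that exchanges sterol between membranes, was lower, with 7.44, 14.2 and 20.0 CPM on day 4 and 18.3, 32.6 and 55.9 CPM in ATV:DNP02, a log2 fold change of -1.25 ± 0.31 (adjusted p = 0.0218). Against Vehicle the log2 fold change of Osbp was -0.19 (adjusted p = 0.901). Hes1, a repressor downstream of Notch, was lower by -1.42 ± 0.37 (adjusted p = 0.0301), a call that held in 9 of 16 fits without 1 library. Cd69, an early activation marker of lymphocytes, had a log2 fold change of 5.12 ± 1.31 (adjusted p = 0.0255), with 1.36, 14.4 and 48.1 CPM on day 4 and 0, 0 and 2.52 CPM in ATV:DNP02, and its call held in 7 of 16 fits without 1 library.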
